A study of Mus musculus with 16 samples.

Results

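The chamber difference of the adult mouse heart was measured in mice whose cardiomyocytes had been targeted for loss of Meis1 and Meis2: the atria and the ventricles of 4 idKO mice, 8 libraries of the 16 in the series, each atrium paired with the ventricle of its own mouse. A gene was a member where at least 4 of these 8 libraries reached 1 counts-per-million (CPM) of the library's summed values, which held for 14068 of the 16118 genes in the table. Per the labels, both groups were Meis1flox/flox and also Meis2flox/flox; the idKO mice carried 1 copy of the transgene (alpha-MHC-MerCreMer tg/wt), and the 4 control mice, used here for comparison, none (alpha-MHC-MerCreMer wt/wt). All 8 were adult male littermates harvested 2 weeks after tamoxifen, with atria and ventricles separated and the outflow tract removed; no age is given in the labels used here. MerCreMer is a tamoxifen-activated Cre recombinase, and the alpha-MHC promoter directs it to cardiomyocytes, so other heart cells kept the floxed alleles intact by design. The controls lacked the transgene, so effects of the transgene cannot be told apart from effects of losing Meis1 and Meis2.

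MEIS1 and MEIS2 are homeodomain transcription factors of the TALE class, which bind DNA together with PBX and other partners and act in heart development and in the cell cycle arrest of heart muscle. Atrial and ventricular cardiomyocytes differ in their myosin light chains, ion channels, secreted hormones and energy metabolism, and separate transcription factors maintain each type: TBX5 and COUP-TFII (Nr2f2) in atria, IRX4 and HEY2 in ventricles. The atrium also holds the sinoatrial pacemaker, more connective tissue and more nerve than the ventricle.

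Values below are the deposited signal, a read count with 0.5 added, in CPM of the effective library size. In idKO ventricles a value of about 0.04 thus stands for no reads. A chamber difference is the atrium minus the ventricle of the same mouse on the log2(signal + 1) scale, given with its standard error (SE) from limma, 4 mice per genotype; it understates the difference of genes with a low signal. A gene was called where the Benjamini-Hochberg adjusted p of that fit was under 0.05. The 8 idKO libraries held 13.2 to 19.8 M (mega) reads in genes. Mitochondrially encoded genes took 16.4 to 17.8% of the reads in idKO atria and 28.2 to 30.7% in idKO ventricles. The effective size was 0.933 to 0.974 of the reads in idKO atria and 0.649 to 0.727 in idKO ventricles, so the deposited scale and a plain share of reads place the midpoint between the chambers differently. In tissue libraries such as these, fewer cells of a type and less RNA per cell cannot be told apart.

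The targeted genes were read first. Meis2 (chromosome 2, 115863064 to 116065839, GRCm38) measured 15.3, 19.0, 18.0 and 18.5 in the atria and 7.78, 8.51, 9.35 and 9.66 in the ventricles of idKO mice 1 to 4, so the chambers did not overlap. Its chamber difference was 0.93 ± 0.11 (limma adjusted p = 1.6e-05), whereas in control mice Meis2 was higher in ventricles, with a mean signal of 20.0 ± 1.48 in atria and 26.8 ± 4.25 in ventricles (SD, n = 4; difference -0.40 ± 0.09). With values in CPM of the column sum the control difference of Meis2 was 0.14 and was not called (limma adjusted p = 0.143), so its sign in controls depends on the scaling. Meis1 (chromosome 11, 18879817 to 19018985) measured 26.4, 30.3, 28.9 and 33.0 in idKO atria and 25.4, 23.3, 23.6 and 19.9 in idKO ventricles. On the log2(signal + 1) scale its mean was 4.93 in idKO atria and 4.87 in control atria, with overlapping ranges. The total Meis1 signal was thus not lower on average in idKO atria. In ventricles the mean was 4.58 in idKO mice (4.39 to 4.72) and 4.82 in control mice (4.80 to 4.88). Meis1 was 0.35 higher in idKO atria on the log2 scale (SE 0.10, limma adjusted p = 0.0124); without idKO mouse 4 it was 0.23 and was not called, and with column-sum scaling it was 0.81. Its difference in controls was 0.048 ± 0.084 (adjusted p = 0.642). The genotype difference of this Meis1 contrast was 0.30 ± 0.14, with an adjusted p of 0.463 by limma. Meis3, a related gene that was not targeted, was low, at 8.93, 7.51, 7.84 and 8.02 in atria and 7.25, 3.94, 5.11 and 3.78 in ventricles. These totals include any transcript that the recombined alleles still make, and other heart cells keep both genes. Esr1 encodes the oestrogen receptor, part of which is fused on both sides of the Cre in MerCreMer, and measured 170.4, 98.7, 154 and 322 in idKO atria and 3168, 2292, 3294 and 3641 in idKO ventricles. In controls, which have no transgene, Esr1 averaged 5.02 ± 0.895 in atria and 0.967 ± 0.632 in ventricles (SD, n = 4). Reads of the transgene and of the native gene cannot be told apart in this table, and the chamber difference of -4.16 for Esr1 in idKO mice describes their sum.

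Chamber differences were many in the mutant heart. Of 14068 genes, 3956 had more signal in atria (28.1%) and 4140 more in ventricles (29.4%). With a further threshold of 2-fold, 1182 genes were higher in atria (8.4%) and 772 higher in ventricles (5.49%). The 4 atria and 4 ventricles did not overlap for 6821 genes. The split between the chambers depends on the scaling: with values in CPM of the column sum, 9089 genes were called higher in atria and 1605 higher in ventricles, since that scaling moves the median chamber difference by 0.45. With mitochondrially encoded genes left out of the sum, the calls were 6651 and 2453. Differences given below are therefore relative to the deposited scale, on which the median over all tested genes was 0.0093.

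The genes of atrial heart muscle kept their restriction. Myl7, the regulatory light chain of atrial myosin, measured 4900.4, 4766, 4526 and 5352 in the atria of idKO mice 1 to 4 and 14.4, 9.53, 8.29 and 5.13 in their ventricles. Myl4, the atrial essential light chain, measured 6058, 5922, 6478 and 7028 in atria and 24.7, 15.8, 14.9 and 9.82 in ventricles. No ventricle came near any atrium for either light chain, and the differences were 8.96 ± 0.16 for Myl7 and 8.59 ± 0.16 for Myl4 (limma adjusted p = 9.6e-13 and 9.7e-13). Sln encodes sarcolipin, an inhibitor of the calcium pump of the sarcoplasmic reticulum, and measured 1552, 1963, 1915 and 2062 in atria and 4.14, 3.77, 2.84 and 2.11 in ventricles. Bmp10 (chromosome 6, 87428994 to 87437677), a BMP ligand made by atrial muscle in the adult heart, had the largest atrial difference among the genes named by the rule, 10.01 ± 0.18. Its signal was 1589, 1753, 1519 and 1851 in atria and 0.342, 0.381, 1.93 and 0.278 in ventricles, with the ventricle of mouse 3 above the other 3.

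The other genes that stood highest in idKO atria were Mybphl, a myosin-binding protein of atrial and conduction muscle (8.53), the secreted glycoprotein gene Dkk3 (7.17), the kinase gene Sbk3 (6.96), Fgf12 (6.96), Tmem163 (6.74), Cilp2 (6.67), Car3 (6.58) and Lmntd1 (5.81). All 12 genes of this ranking were also called higher in atria in control mice, at differences of 5.81 to 10.44, and none of the 12 was called different between the genotypes. Of 19 tested genes on the list of atrial identity, 18 were called higher in idKO atria and 1 higher in idKO ventricles (28.1% and 29.4% of all tested genes), with a median difference of 3.83 in idKO and 4.16 in control mice. The exception was the potassium channel gene Kcna5, named after its values were seen, at 10.9, 10.8, 10.3 and 11.8 in atria and 26.6, 27.6, 20.9 and 21.1 in ventricles. Kcna5 was also higher in control ventricles (difference -1.11). Stard10, a lipid transfer protein gene on that list, was 4.93 higher in idKO atria.

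**Figure D1:**
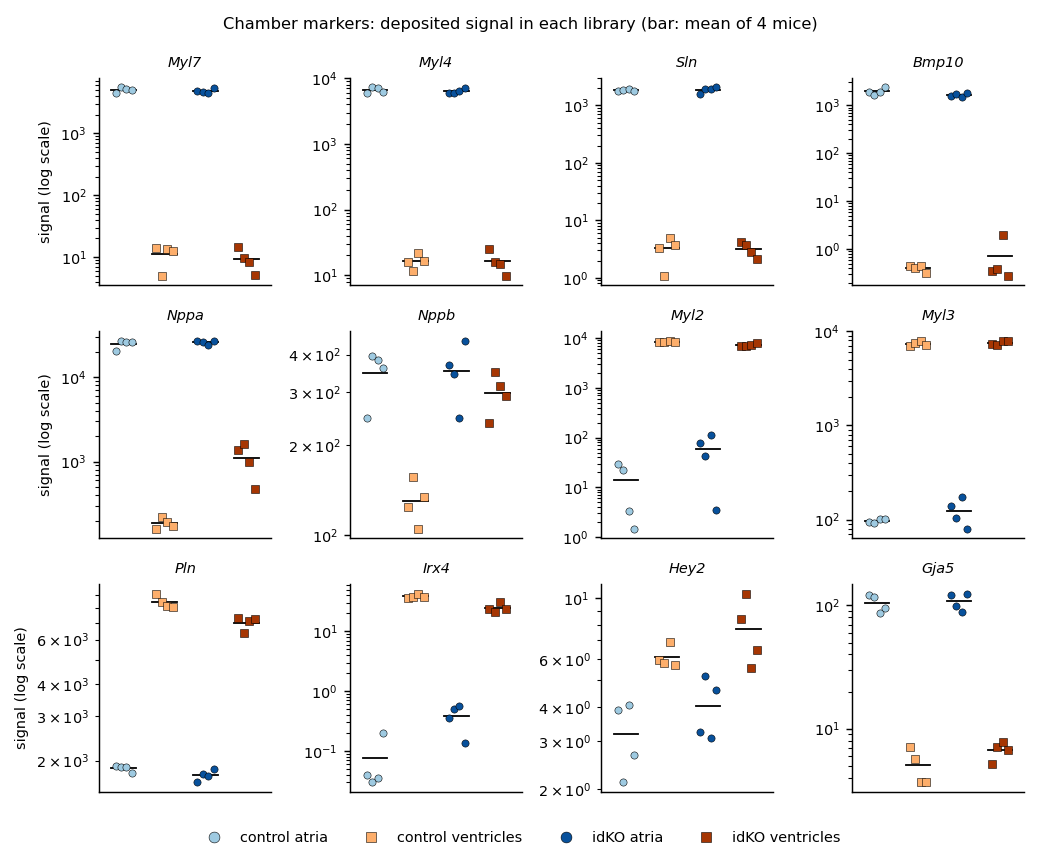
Deposited signal (log axis) of 12 chamber markers in each of the 16 libraries, as points for the 4 mice of each group with a bar at the group mean. Myl7, Myl4, Sln, Bmp10 and Gja5 were high in the atria of both genotypes and Myl2, Myl3, Pln and Irx4 in the ventricles, while for Nppa and Nppb the idKO ventricles lay above the control ventricles.

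The ventricular genes were likewise retained. Myl2, the ventricular regulatory light chain, measured 6769, 6818, 7329 and 7813 in idKO ventricles and 77.0, 42.8, 111 and 3.54 in idKO atria. The atrial level of Myl2 differed widely between mice, with mouse 4 far below the other 3, and in control atria it was 29.0, 22.0, 3.28 and 1.46. Myl3, the ventricular essential light chain, measured 7298, 7089, 7979 and 7815 in ventricles and 139.6, 104, 175 and 79.5 in atria, again lowest in the atrium of mouse 4. Acta1, skeletal actin, measured 9.32, 11.8, 96.4 and 1.75 in idKO atria, highest in mouse 3, and 1458, 2079, 4004 and 1613 in idKO ventricles, also highest in mouse 3. How much ventricular tissue or RNA the atrial samples hold was not tested. Without mouse 3 in the fit the counts over all genes were 3486 higher in atria and 3718 higher in ventricles.

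The chamber differences were -7.63 ± 0.54 for Myl2, -5.97 ± 0.13 for Myl3 and -7.26 ± 0.39 for Acta1 (limma adjusted p = 1.1e-07, 3.8e-12 and 9.9e-09). The ranking of ventricular genes went on with Myh7b, a slow myosin heavy chain gene (-6.04), Lrtm1 (-5.60), Tesc (-4.91), Ogdhl (-4.78), the Z-disc gene Myot (-4.24), Esr1 as described above, Rpl3l, a muscle form of a ribosomal protein (-4.11), Lrrc15 (-4.05) and Epn3 (-4.01). Apart from Esr1, these genes were called higher in ventricles in control mice too and were not called different between the genotypes. Of 16 tested genes on the list of ventricular identity, 15 were called higher in ventricles and 1 higher in atria, with a median of -2.52 in idKO and -2.82 in control mice. The exception was Smpx, a small muscle protein gene named after its values were seen, at 359.5, 358, 409.6 and 423 in atria and 291, 283, 277 and 268 in ventricles. Rpl3, the ubiquitous partner of Rpl3l, was higher in idKO atria, by 1.07 ± 0.054, with signals of 402, 376, 353 and 214 in atria and 195, 201, 154 and 96.3 in ventricles.

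Among 40 sarcomere genes, 30 were called higher in idKO ventricles and 8 higher in atria, and the list median was -0.74 in both genotypes. The 8 atrial genes included the atrial light chains and Mybphl. Pln, phospholamban, the main inhibitor of the calcium pump, measured 1646, 1778, 1748 and 1853 in atria and 7267, 6366, 7084 and 7209.9 in ventricles, a difference of -1.99 ± 0.057. Of 29 genes of calcium handling, 17 were called higher in ventricles and 8 in atria (29.4% and 28.1% of all tested genes), with a median of -0.22; with column-sum scaling the median was 0.26 and the counts were 7 and 17. S100a1, a calcium sensor of heart muscle, was 225, 248, 249.8 and 245 in atria and 489, 548, 563 and 581 in ventricles. Nrap, an anchoring protein of the intercalated disc, and Dsp, desmoplakin, were higher in ventricles (differences -1.33 and -0.95), whereas Dsc2, desmocollin of the same desmosomes, was higher in atria (1.31). Of 22 intercalated disc genes tested, 14 were called higher in ventricles and 7 in atria, which became 7 and 10 with column-sum scaling.

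The transcription factors that set the chambers apart kept their sides. Of 37 cardiac transcription factors tested, 18 were called higher in idKO atria, 10 higher in ventricles and 9 were not called. Over all tested genes the shares were 28.1% and 29.4%, and the ventricular count lies near the second. With column-sum scaling the counts were 27 and 5, and the list median moved from 0.12 to 0.60. Tbx5 measured 265, 215, 199 and 259.7 in atria and 31.4, 30.3, 31.3 and 27.9 in ventricles, a difference of 2.91 ± 0.081 (limma adjusted p = 3.3e-11). Nr2f2 measured 65.1, 75.0, 84.2 and 69.7 in atria and 13.8, 18.8, 13.2 and 11.6 in ventricles. Irx3, a factor of the ventricular conduction system, measured 1.91, 3.77, 4.07 and 4.83 in atria and 35.7, 37.2, 51.2 and 37.3 in ventricles. Irx4 was at 0.351, 0.50, 0.573 and 0.135 in idKO atria, a few reads per library, and at 23.9, 21.0, 31.1 and 23.7 in idKO ventricles. Its difference of -4.22 ± 0.16 stood beside -5.21 ± 0.15 in control mice, where ventricles measured 35.9, 38.0, 42.7 and 38.1. The genotype difference of 0.99 was called by limma and lost its call in 14 of 24 alternative fits, over which it ran from 0.64 to 3.76. Hey2, a Notch target, was low in all libraries, with 3.24, 5.17, 3.09 and 4.62 in atria and 8.39, 10.4, 5.56 and 6.48 in ventricles, and was called higher in ventricles (-0.78 ± 0.17, limma adjusted p = 0.00142).

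BMP signalling leaned to the atria. Of 30 genes of BMP and TGF-beta signalling, 21 were called higher in idKO atria and 4 higher in ventricles, against 28.1% and 29.4% of all tested genes, and no member was called different between the genotypes. The ligand Bmp3 measured 17.7, 15.6, 18.3 and 23.0 in atria and 0.0380, 0.0423, 0.0379 and 0.199 in ventricles. Eng, an endothelial co-receptor, measured 527, 502, 484 and 458 in atria and 169, 163, 152 and 178 in ventricles, and Smad6, an inhibitory SMAD, 67.0, 60.3, 53.2 and 57.0 in atria and 12.8, 13.6, 15.1 and 13.6 in ventricles. The list median was 0.70 in idKO and 0.76 in control mice.

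Ion channel genes divided between the chambers. Of 23 genes of sodium, calcium and pacemaker channels, 12 were called higher in idKO atria and 8 higher in ventricles, where the shares over all tested genes were 28.1% and 29.4%. Cacna2d2, a calcium channel auxiliary subunit, measured 88.2, 74.0, 71.8 and 76.0 in atria and 1.94, 1.31, 1.70 and 1.79 in ventricles, and its relative Cacna2d1 ran the other way, with 89.8, 91.3, 87.9 and 94.9 in atria and 216, 216, 187 and 223 in ventricles. Cacna1d, the calcium channel of pacemaker cells, measured 22.9, 22.0, 24.1 and 19.7 in atria and 1.78, 1.82, 1.48 and 1.07 in ventricles, and Cacna1c, the main channel of working muscle, 153, 136, 122 and 149 in atria and 302, 268, 249 and 284 in ventricles. For all 4 of these calcium channel genes the chambers did not overlap. Of 26 potassium channel genes, 10 were called higher in atria and 11 higher in ventricles, both somewhat above those shares. These potassium channel counts became 16 and 8 with column-sum scaling. Kcnj3 and Kcnj5, the subunits of the channel that the vagus nerve opens through acetylcholine, were both higher in atria, by 3.03 ± 0.11 and 1.51 ± 0.046. Kcnj3 measured 688, 747, 752 and 737 in atria and 116, 97.4, 64.7 and 83.5 in ventricles. The sulfonylurea receptors of the ATP-sensitive channel took opposite sides, with Abcc8 at 179.7, 159, 162 and 186 in atria and 52.6, 45.1, 48.8 and 49.9 in ventricles and Abcc9 at 46.4, 56.9, 47.9 and 55.3 in atria and 199.7, 187, 212 and 260.4 in ventricles.

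Of 19 genes of the conduction system, 15 were called higher in idKO atria and 3 higher in ventricles, with a median of 1.77 in idKO and 1.67 in control mice. Gja5, the connexin of atrial and conduction muscle, measured 121, 98.6, 88.5 and 125 in atria and 5.12, 7.07, 7.76 and 6.72 in ventricles. Cpne5 measured 78.3, 46.8, 58.7 and 62.7 in atria and 2.01, 1.23, 0.946 and 0.0397 in ventricles, and Rgs6, a brake on muscarinic signalling, 73.8, 67.1, 73.4 and 73.9 in atria and 24.5, 18.4, 20.2 and 18.5 in ventricles. Of 29 adrenergic, muscarinic and G protein genes, 13 were called higher in atria and 11 in ventricles, against 28.1% and 29.4% of all tested genes. The 2 counts became 18 and 6 with column-sum scaling. Gnao1, a G protein subunit, was 2.43 ± 0.09 higher in atria. Agtr1a, the angiotensin receptor, and Rgs5, a pericyte regulator of G protein signalling, were lower there, at differences of -1.91 ± 0.093 and -1.45 ± 0.042.

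The natriuretic peptide genes showed the clearest narrowing among the atrial genes. Nppa, which encodes atrial natriuretic peptide, measured 26982, 26269, 24435 and 26842 in idKO atria and 1356, 1635, 989 and 478 in idKO ventricles, a difference of 4.69 ± 0.20 (limma adjusted p = 1.4e-09). In control mice the atria measured 20734, 27316, 26059 and 26466 and the ventricles 159, 218, 189.6 and 174, so each idKO ventricle lay above each control ventricle while the atria of the genotypes overlapped. The chamber difference of Nppa in idKO minus that in control mice was -2.39 ± 0.26 (limma adjusted p = 1.6e-04). Nppb, which encodes B-type natriuretic peptide, measured 369.6, 345, 247 and 445 in idKO atria and 237, 349, 315 and 290.5 in idKO ventricles, and the chambers overlapped. Its chamber difference was 0.22 ± 0.13 in idKO mice (adjusted p = 0.163 by limma) and 1.40 ± 0.10 in controls, where ventricles measured 124, 156, 105 and 135. In idKO mice the Nppb difference ran from 0.082 to 0.70 over 20 alternative fits and was called higher in atria in 3 of them: 0.70 with column-sum scaling, 0.48 with mitochondrially encoded genes left out of the sum and 0.41 without idKO mouse 3. Of 14 genes of natriuretic peptides and their processing, 10 were called higher in idKO atria and 2 higher in ventricles. The shares over all tested genes were 28.1% and 29.4%. Npr3, the clearance receptor, measured 338, 388, 314 and 276 in atria and 43.5, 42.3, 39.6 and 35.7 in ventricles. Pam, an enzyme that amidates peptides and is abundant in atrial granules, measured 9896, 8903, 10390.0 and 11283 in atria and 1490.3, 1286, 1497 and 1165 in ventricles. Corin, the protease that activates the Nppa product, measured 554, 536, 513 and 567 in atria and 294, 275, 255 and 313 in ventricles.

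The promoter windows of 4 genes are shown because the results turn on them: the pair of natriuretic peptide genes, which lie side by side on chromosome 4, Bmp10, which kept its full atrial restriction, and Gja1, whose chamber difference changed sign on the deposited scale. Each is the 250 bases before the gene's start in the RefSeq promoter table (GRCm38.p6), 5′ to 3′ on the gene's plus strand, with matches to 3 short motifs, searched on either strand, in capitals. The first motif is TGACAG, the core that MEIS factors read. The second is the box bound by the general transcription machinery, written TATAAA. The third is AGATAA, a form of the core read by the zinc finger factors of the Gata4 family. Other forms of that core were not searched for and stay in lower case. Nppa lies at chr4:148000472-148000721, Nppb at chr4:147985650-147985899, Bmp10 at chr6:87428744-87428993 and Gja1 at chr10:56377050-56377299.
Nppa: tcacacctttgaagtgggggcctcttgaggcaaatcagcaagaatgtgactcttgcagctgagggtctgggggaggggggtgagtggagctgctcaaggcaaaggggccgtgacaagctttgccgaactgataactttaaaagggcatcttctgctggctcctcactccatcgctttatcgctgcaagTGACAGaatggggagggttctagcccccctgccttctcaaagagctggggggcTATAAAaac
Nppb: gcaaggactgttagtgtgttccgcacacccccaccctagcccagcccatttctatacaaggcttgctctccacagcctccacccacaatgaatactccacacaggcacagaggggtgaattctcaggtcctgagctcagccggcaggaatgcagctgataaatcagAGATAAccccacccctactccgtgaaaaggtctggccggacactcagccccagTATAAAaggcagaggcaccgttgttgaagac
Bmp10: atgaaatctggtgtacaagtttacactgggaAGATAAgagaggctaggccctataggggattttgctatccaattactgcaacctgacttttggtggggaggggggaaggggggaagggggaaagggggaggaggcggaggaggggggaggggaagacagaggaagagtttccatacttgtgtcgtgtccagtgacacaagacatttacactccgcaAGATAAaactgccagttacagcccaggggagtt
Gja1: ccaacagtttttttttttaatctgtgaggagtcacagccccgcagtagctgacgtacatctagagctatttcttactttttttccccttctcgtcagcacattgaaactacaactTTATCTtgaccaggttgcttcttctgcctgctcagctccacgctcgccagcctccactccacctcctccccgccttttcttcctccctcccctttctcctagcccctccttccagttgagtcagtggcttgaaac
In Nppa the capitals mark 1 TGACAG and 1 TATAAA, beginning 62 and 9 bases before the start. Nppb has 1 AGATAA and 1 TATAAA, beginning 84 and 31 bases before the start, Bmp10 has 2 AGATAA, and Gja1 has 1 AGATAA on the opposite strand, printed as TTATCT. None of the other 3 windows holds TGACAG. No match overlapped another, and these letters are matches in a window, not measured binding sites.

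Energy metabolism was weighted to the ventricle in the mutant as in the control heart. Over all tested genes 29.4% were called higher in idKO ventricles and 28.1% higher in idKO atria. All 13 mitochondrially encoded genes tested were called higher in idKO ventricles, with a median of -1.22 (-1.38 in controls), and mt-Nd6, a complex I subunit, measured 2329, 2810.3, 2568 and 2645 in atria and 6594, 6359, 6364 and 6656 in ventricles. Of 52 nuclear genes of the respiratory chain, 50 were called higher in ventricles and 2 higher in atria, with a median of -0.85 in idKO and -1.0 in control mice. Uqcrc1 and Cyc1 of complex III and Cox8b of complex IV were higher in ventricles, by differences of -1.18 ± 0.041, -1.19 ± 0.044 and -1.37 ± 0.051. The 2 genes called higher in atria, named after their values were seen, were Cox8a (0.15), the widely expressed relative of Cox8b, and Cox6a1 (0.24), the widely expressed form of a subunit with its own muscle version. Both lost their call in 5 of 20 alternative fits, among them those without idKO mouse 1, 3 or 4.

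Fatty acid oxidation, the main fuel route of heart muscle, had the lowest median of the nuclear metabolic lists, -1.19 in idKO and -1.41 in control mice. Of its 36 genes, 34 were called higher in idKO ventricles and 2 higher in atria. Fabp3, the fatty acid carrier of heart muscle, measured 1031, 918, 1129 and 1048 in atria and 4455, 4047, 4871 and 4714 in ventricles. Hadhb and Eci1, enzymes of the oxidation spiral, differed by -1.87 ± 0.046 and -1.92 ± 0.048, and Plin5, a coat protein of lipid droplets, by -2.54 ± 0.064. The 2 atrial genes, named after their values were seen, were Ucp2 (2.10), a mitochondrial carrier, and Cpt1a (0.23), the liver form of carnitine palmitoyltransferase. In the tricarboxylic acid cycle, 26 of 27 genes were called higher in ventricles, among them Idh2 (-1.79) and Sucla2 (-1.36), and 1 higher in atria, pyruvate carboxylase (Pcx, 0.26, named after its values were seen). For Pcx the atrium of mouse 3 measured 82.1 against 41.7 to 51.0 in the others. Pcx lost its call in 8 of 20 alternative fits, among them those without idKO mouse 2, 3 or 4.

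Ketone and branched-chain oxidation followed, with 17 of 18 genes called higher in ventricles. Oxct1, which activates ketone bodies for oxidation, measured 543, 549, 579 and 525 in atria and 1898, 1736, 2151 and 1978 in ventricles, and Bdh1, the ketone dehydrogenase, 16.7, 11.2, 13.5 and 8.12 in atria and 124, 76.6, 161 and 69.99 in ventricles. Glycolysis and glycogen genes were called higher in ventricles in 25 of 33 cases and higher in atria in 6. Hk2, the hexokinase of muscle, differed by -1.34 ± 0.052, and Ldhb, the heart form of lactate dehydrogenase, by -1.32 ± 0.048. Of 14 phosphotransfer and oxygen storage genes, 13 were called higher in ventricles, including Ckm, muscle creatine kinase (-1.73), and Mb, myoglobin, at 4084, 5014, 4811 and 5044 in atria and 13798, 14581, 15915 and 16246 in ventricles. The exception, named after its values were seen, was Ckb, brain creatine kinase (0.39). All 38 mitochondrial ribosome genes were called higher in ventricles, Mrps23 by -0.96 ± 0.048. The 48 cytosolic ribosomal protein genes had a median of -0.031, with 14 called higher in ventricles, 8 higher in atria and 26 not called; with column-sum scaling 44 of them were called higher in atria and 1 in ventricles. The metabolic medians kept their sign under each scaling tried, from -1.19 to -0.71 for fatty acid oxidation and from -0.85 to -0.37 for the nuclear respiratory chain.

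**Figure D2:**
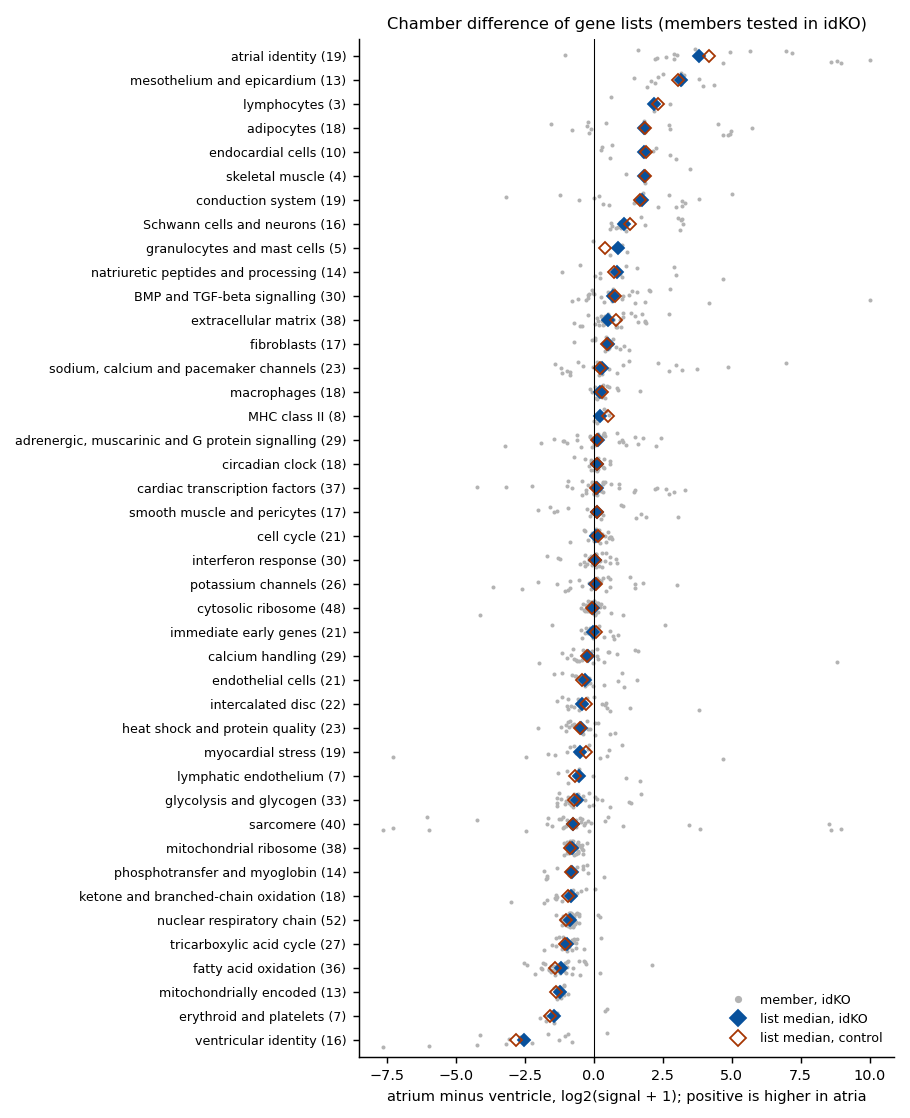
Chamber difference (atrium minus ventricle, log2) of the members of each gene list in idKO mice as grey points, with the list median in idKO (filled) and control mice (open) and the number of tested members in brackets. The medians ran from -2.52 for ventricular identity to 3.83 for atrial identity, with metabolic lists below 0 and mesothelial, endocardial, nerve and conduction lists above 0 in both genotypes.

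Several lists of cells other than muscle were higher in the atria, and others split or were mostly not called. All 10 tested endocardial markers and all 13 of mesothelium and epicardium were called higher in idKO atria, with medians of 1.82 and 3.15. The summed signal of the endocardial list was 1085 to 1339 in idKO atria and 352 to 406 in idKO ventricles, and that of the mesothelial list 305 to 605 and 27.0 to 52.2. Plvap, a protein of endothelial diaphragms, measured 123, 133, 134 and 103 in atria and 18.3, 18.0, 17.1 and 15.4 in ventricles. Vwf, von Willebrand factor, measured 423, 392, 422 and 375 in atria and 114, 120.0, 107 and 104 in ventricles. Upk3b and Msln, markers of the mesothelium that covers the heart, differed by 4.37 ± 0.16 and 3.96 ± 0.18. Of 21 markers of endothelium at large, 13 were called higher in ventricles and 5 in atria: Gpihbp1, which anchors lipoprotein lipase in capillaries, measured 30.4, 32.0, 26.4 and 28.2 in atria and 70.2, 68.5, 55.4 and 68.2 in ventricles, while Pecam1 measured 358, 371, 307 and 334 in atria and 152, 166, 157 and 160.1 in ventricles. Over all tested genes 29.4% were called higher in ventricles and 28.1% in atria. The endothelial sum was 2544 to 2736 in atria and 2631 to 2972 in ventricles. With column-sum scaling the endothelial list median of -0.33 turned to 0.15, and 4 markers were called higher in ventricles and 10 in atria.

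Matrix genes leaned to the atria, with 28 of 38 called higher there and 3 higher in ventricles. The shares over all tested genes were 28.1% and 29.4%. Fn1, fibronectin, measured 199, 188, 185 and 124 in atria and 50.0, 56.4, 48.2 and 35.7 in ventricles, and Timp2, an inhibitor of matrix proteases, 314, 396, 338 and 313 in atria and 127, 176, 113 and 119 in ventricles. Of 17 fibroblast markers, 13 were called higher in atria and 1 in ventricles, and their sum was 4994 to 6296 in atria and 2696 to 4047 in ventricles. Gsn and Dpt on that list differed by 1.08 ± 0.06 and 0.96 ± 0.071. Of 17 smooth muscle and pericyte markers, 8 were called higher in atria and 7 in ventricles, which became 11 and 5 with column-sum scaling. Their sum was 2124 to 2474 in atria and 3726 to 4011 in ventricles. All 16 tested markers of Schwann cells and neurons were called higher in atria, with sums of 221 to 288 and 85.0 to 135. Mbp, myelin basic protein, measured 38.1, 30.1, 27.3 and 27.3 in atria and 4.74, 2.92, 1.63 and 1.87 in ventricles, and Prph, an intermediate filament of peripheral neurons, 11.0, 13.7, 10.7 and 11.2 in atria and 0.266, 0.804, 0.341 and 0.278 in ventricles. Atp2a1, a calcium pump of fast skeletal muscle, measured 17.5, 18.6, 13.9 and 29.0 in atria and 1.02, 1.48, 0.492 and 0.358 in ventricles. All 4 skeletal muscle markers tested were called higher in atria, but their list summed to only 2.46 to 5.12 in ventricles. Genes this low in ventricles can pass the filter through the atria alone, which favours an atrial call. Without the filter 4 of 7 skeletal muscle markers were called higher in atria. The same counts were 19 of 19 for nerve, 10 of 11 for endocardial and 14 of 15 for mesothelial markers.

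Immune and fat markers varied between mice. Igkc, an antibody light chain, measured 239, 1.43, 79.0 and 2.56 in the atria of idKO mice 1 to 4 and 2.16, 2.24, 2.23 and 1.39 in their ventricles, so only the atria of mice 1 and 3 were high. Ighm, an antibody heavy chain, followed the same mice at 358, 7.91, 180.5 and 11.8 in atria. The lymphocyte list summed to 29.0 to 691 in idKO atria and 23.8 to 32.3 in idKO ventricles, and to 232 to 1050 in control atria. Cfd, an adipocyte-secreted protease gene, measured 107, 60.9, 136 and 51.3 in atria, highest in mouse 3. Plin1, which coats the lipid droplets of adipocytes, measured 24.0, 20.0, 73.0 and 35.9 in atria, and both genes lay under 1 in each ventricle. Ucp1, the heat-producing carrier of brown fat, measured 26.4, 27.0, 58.6 and 28.0 in atria and 0.114, 0.0423, 0.114 and 0.0397 in ventricles. Of 18 adipocyte genes, 12 were called higher in atria and 3 in ventricles (28.1% and 29.4% of all tested genes). The summed signal of the adipocyte list overlapped, at 1621 to 3096 in idKO atria and 1834 to 1954 in idKO ventricles. Of 18 macrophage genes, 6 were called higher in atria and 12 were not called, with a median of 0.23. The atrial count lies near the share over all tested genes (28.1%). With column-sum scaling 17 macrophage genes were called higher in atria. Lyve1, the largest difference on that list and also a marker on the lymphatic list, measured 97.6, 85.8, 78.2 and 74.7 in atria and 26.1, 28.8, 20.9 and 27.9 in ventricles. Erythroid and platelet markers were higher in ventricles in 5 of 7 cases, with Hbb-bs at 39.9, 24.2, 58.6 and 44.5 in atria and 95.3, 195, 167 and 200.4 in ventricles. No airway or thymus marker reached the level needed for a test. The part of these cell types in the chamber differences of other genes was not tested.

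**Figure D3:**
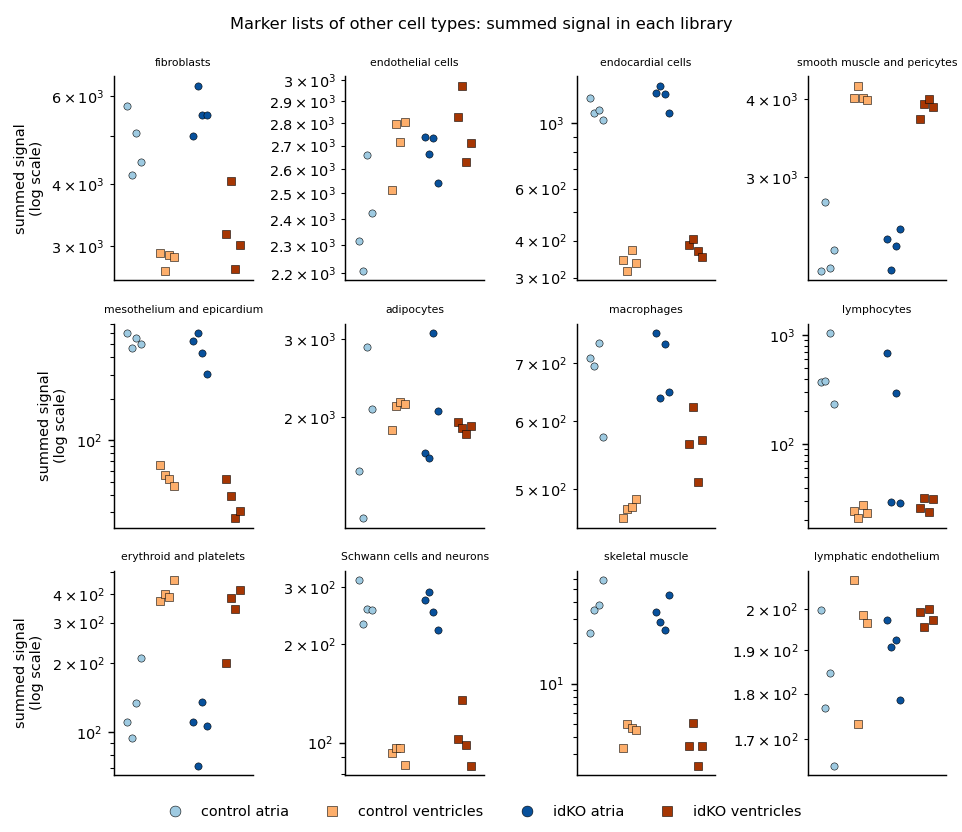
Summed signal (log axis) of the marker lists of 12 cell types in each library, as points for the 4 mice of each group. The endocardial, mesothelial, nerve and skeletal muscle sums were higher in every atrium than in every ventricle, and the lymphocyte sum of idKO atria fell into 2 high and 2 low libraries, from 29.0 to 691.

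Most chamber differences of the mutant heart were also present in the control heart. Among 13762 genes tested in both genotypes, 3284 were called higher in atria in both, which is 85.1% of the idKO list and 80.9% of the control list. For ventricles 3723 genes were shared, 90.6% of the idKO list and 83.6% of the control list. In control mice, fitted in the same way, 29.8% of 14034 genes were called higher in atria and 31.9% higher in ventricles, and with the 2-fold threshold 9.34% and 6.03%. Of 1244 genes called at 2-fold or more in control atria and tested in both, 1217 were called in the same direction in idKO mice, and of 838 in control ventricles, 818. Loss of a call is not itself a difference: of 773 genes called higher in atria in controls and not in idKO mice, 7 were called different between the genotypes, and of 733 such ventricular genes, 22.

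The difference between the genotypes was tested gene by gene, as the chamber difference in idKO minus that in control mice, over 14871 genes of the 16 libraries. In this contrast 79 genes were more positive in idKO mice (0.531%) and 23 more negative (0.155%). Of the 79, 49 kept a call in the same direction in both genotypes, 12 were called higher in ventricles in control mice alone, 8 higher in atria in idKO mice alone, and 10 had opposite calls. Of the 23, 12 kept their direction, 5 were called higher in atria in controls alone, 4 higher in ventricles in idKO mice alone, and 2 had opposite calls. The counts are sensitive to the model for the spread: without the trended prior they were 12 and 1, and with DESeq2 106 and 38.

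**Figure D4:**
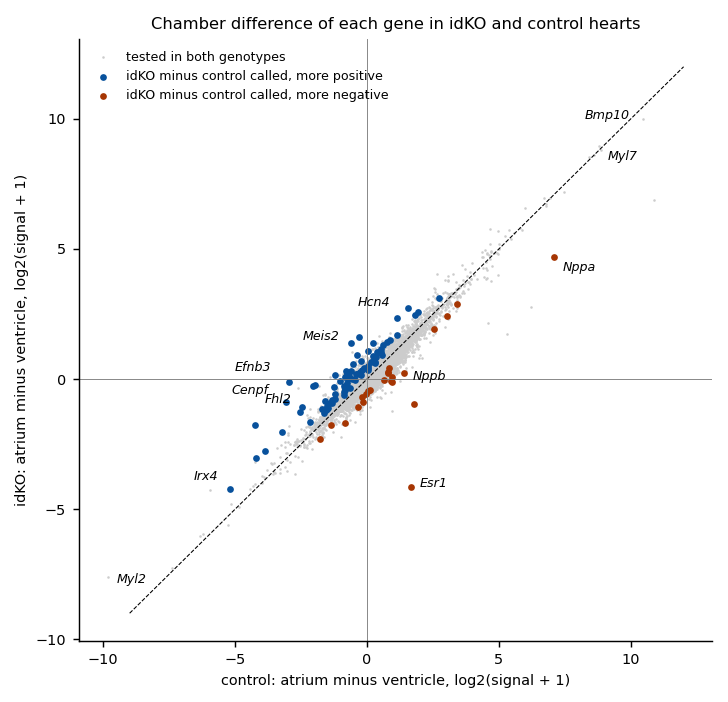
Chamber difference of 13762 genes in control mice (horizontal) and idKO mice (vertical), both on the log2 scale, with equality as a dashed line and the genes called different between the genotypes in colour. Most genes lie along the line; Esr1, Nppa and Nppb lie below it, and Efnb3, Cenpf, Fhl2 and Meis2 above it.

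Several ventricular genes had lost most or all of their chamber difference. Efnb3, a membrane-bound ligand of Eph receptors, measured 14.7, 9.84, 8.27 and 7.59 in idKO atria and 15.0, 8.26, 8.74 and 12.1 in idKO ventricles, and the chambers overlapped. In control mice it measured 10.2, 15.6, 9.56 and 15.3 in atria and 113, 97.7, 83.3 and 120.2 in ventricles, so its difference of -2.95 ± 0.10 in controls was -0.12 ± 0.15 in idKO mice (genotype difference 2.83 ± 0.19, limma adjusted p = 9.7e-07). Ttll1, a subunit of a tubulin-modifying enzyme, measured 14.4, 14.6, 15.0 and 14.2 in idKO atria and 17.8, 15.9, 16.8 and 19.4 in idKO ventricles, against 56.5, 54.6, 63.8 and 65.5 in control ventricles. Cenpf, a kinetochore protein gene, measured 2.93, 2.23, 6.85 and 3.75 in idKO atria and 9.07, 5.46, 9.05 and 7.03 in idKO ventricles and 47.2, 41.8, 58.7 and 60.4 in control ventricles. Its chamber difference was -3.08 ± 0.11 in control mice and -0.87 ± 0.18 in idKO mice. The receptor gene Gpr22 and the LIM protein gene Fhl2 kept a ventricular call at a smaller size, with idKO differences of -1.07 ± 0.12 and -1.27 ± 0.043 and genotype differences of 1.39 ± 0.19 and 1.25 ± 0.084. Fhl2 measured 844, 710.3, 685 and 932 in idKO and 2316, 2397, 2064 and 2049 in control ventricles. Abca12, a lipid transporter gene, and the pseudogene Sms-ps, whose reads could belong to its parent gene Sms, had genotype differences of 1.36 ± 0.21 and 1.80 ± 0.29. Mpped2, on the list of ventricular identity and named after its values were seen, had a chamber difference that went from -4.19 in control to -3.05 in idKO mice, and its genotype difference, 1.14, lost its call in 13 of 24 alternative fits (0.73 to 2.02).

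A second set of genes changed sides on the deposited scale. Of 20 genes called in opposite directions, 16 were higher in ventricles in control mice and higher in atria in idKO mice. With column-sum scaling only 2 of the 20 kept opposite calls, Esr1 and Rps27rt, while 4 did with mitochondrially encoded genes left out of the sum (Gja1 and Entpd5 as well) and 17 with DESeq2 size factors. Of the 20, 10 were called more positive and 2 more negative in idKO mice in the test of the genotype difference, and for the other 8 that difference was not called. Gja1 (chromosome 10, 56377330 to 56402513), connexin 43, the main gap junction protein of working muscle, measured 252, 328, 321 and 308 in idKO atria and 199, 178, 209 and 218 in idKO ventricles. In control mice Gja1 measured 396, 268, 283 and 267 in atria and 523, 375, 415 and 432 in ventricles, and its chamber difference changed from -0.53 ± 0.051 to 0.58 ± 0.071 (genotype difference 1.12 ± 0.10, limma adjusted p = 1.5e-05). Ryr2, the calcium release channel, did likewise, at 1961, 1745, 1860.1 and 2002 in idKO atria and 1542, 1253, 1464 and 1680.2 in idKO ventricles. Its genotype difference was 0.53 ± 0.074. With column-sum scaling the control differences were 0.034 for Gja1 and 0.39 for Ryr2. The genotype difference of Ryr2 stayed positive in each alternative, at 0.45 to 0.59. Entpd5, an enzyme of the endoplasmic reticulum, Emilin2, a matrix glycoprotein, and Lifr, a cytokine receptor, had genotype differences of 0.90 ± 0.074, 0.93 ± 0.11 and 0.53 ± 0.094. Slc8a1, the sodium-calcium exchanger, and the retrogene Rps27rt had opposite calls in the separate fits and were not called different between the genotypes (limma adjusted p = 0.0647 and 0.126).

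Some genes higher in idKO atria had a more positive chamber difference in the mutant than in the control heart. Hcn4, the pacemaker channel of the sinoatrial node, measured 17.4, 17.9, 18.5 and 27.1 in idKO atria and 2.16, 2.84, 2.84 and 5.29 in idKO ventricles, and 22.0, 23.0, 13.9 and 24.9 in atria and 10.4, 11.8, 6.59 and 7.10 in ventricles in control mice, so the lower level lay in the idKO ventricles. Its difference was 2.34 ± 0.14 in idKO and 1.14 ± 0.14 in control mice (genotype difference 1.19 ± 0.19, limma adjusted p = 0.00572). The sodium channel gene Scn10a and the potassium channel gene Kcnh2, which carries the rapid delayed rectifier current, had genotype differences of 1.15 ± 0.19 and 0.62 ± 0.085; these 3 genes were named after their values were seen. Corin, Rgs2 and Ctgf were also more atrial in idKO mice, with genotype differences of 0.37, 0.59 and 0.64; Rgs2 was named after its values were seen. Ctgf, a matricellular growth factor gene, measured 392, 721, 532 and 518 in idKO atria and 79.8, 122, 86.6 and 68.1 in idKO ventricles. Among muscle structure genes named after their values were seen, Nebl, Cmya5 and Ctnna1 were called higher in idKO atria, with genotype differences of 0.52, 0.45 and 0.39.

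In the other direction, Nppa and Nppb had the largest changes after Esr1 among the genes named by the rule. Bin1, which shapes the transverse tubules, measured 13.2, 11.6, 15.4 and 8.45 in idKO atria and 11.3, 16.2, 13.7 and 9.66 in idKO ventricles, which overlapped, whereas control mice had 14.2, 12.1, 11.2 and 12.6 in atria and 6.98, 6.11, 5.38 and 6.61 in ventricles. Gcnt1, a glycosyltransferase gene, had a control difference of 0.93 ± 0.14 and an idKO difference of 0.07 ± 0.086, and mouse 3 was low in both chambers. Polr1e, a subunit of RNA polymerase I, measured 16.2, 14.6, 15.4 and 13.5 in idKO atria and 57.9, 54.0, 53.9 and 38.8 in idKO ventricles against 28.5, 26.6, 24.8 and 24.9 in control ventricles, and its chamber difference was -0.85 ± 0.10 in control mice and -1.70 ± 0.088 in idKO mice. Tnnt1, slow skeletal troponin T, was more ventricular in idKO mice, with a genotype difference of -0.75 ± 0.16. Gnao1 and Pam, both atrial, had smaller differences in idKO than in control mice, with genotype differences of -0.62 ± 0.13 and -0.51 ± 0.10.

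**Figure D5:**
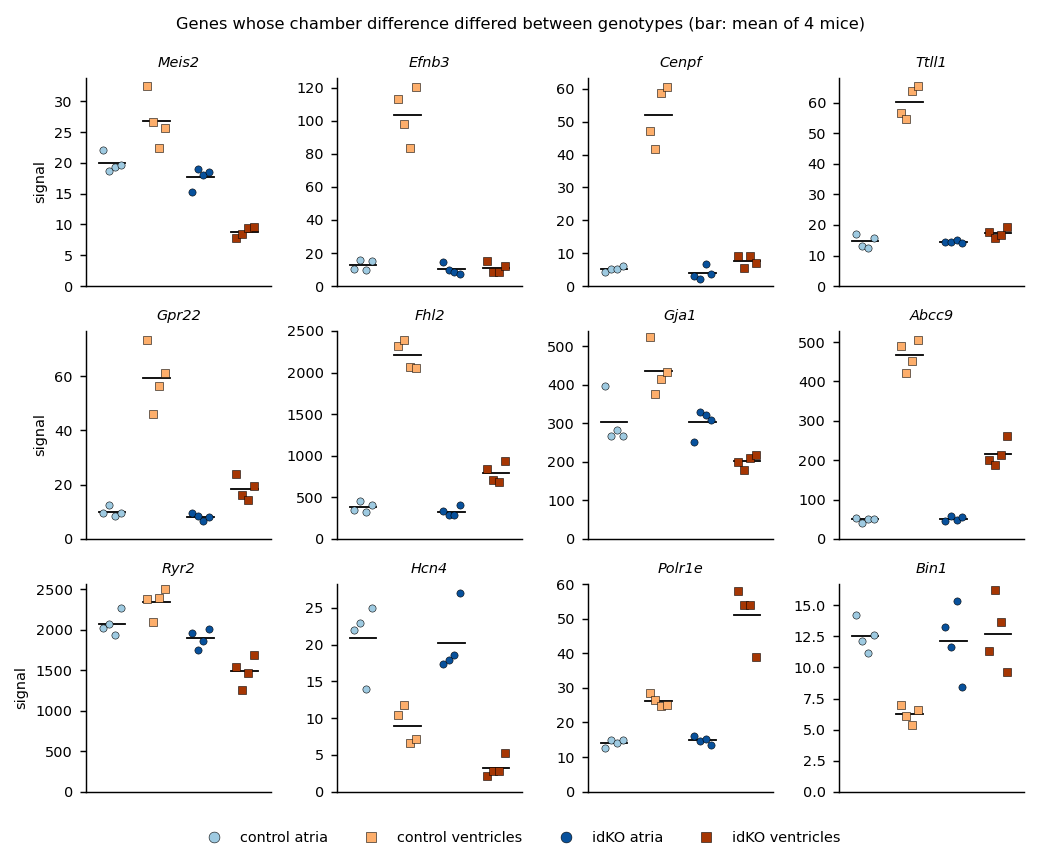
Deposited signal of 12 genes called different between the genotypes, as points for the 4 mice of each group with a bar at the group mean and axes from 0. For Efnb3, Ttll1, Cenpf, Gpr22 and Fhl2 the idKO ventricles lay below every control ventricle while the atria of the genotypes overlapped, and for Polr1e and Bin1 the idKO ventricles lay above the control ventricles.

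Genes called different between the genotypes were 0.686% of all genes tested in this contrast. Several gene lists held a larger share of them, and others held none. Of 17 genes of natriuretic peptides and processing tested here, 1 was called more positive (Corin) and 3 more negative (Nppa, Nppb and Pam). Of 16 genes of ventricular identity, 3 were called more positive, Irx4, Fhl2 and Mpped2. No member of the BMP, mitochondrially encoded, nuclear respiratory chain, tricarboxylic acid, ketone, mitochondrial ribosome, matrix, fibroblast, endothelial, endocardial, mesothelial, adipocyte, macrophage or lymphocyte lists was called different between the genotypes. The list of sodium, calcium and pacemaker channels held the most, 6 of 23, among them Scn10a, Hcn4, Fgf13 (0.63) and Cacna2d1 (0.34) in the positive direction. The sarcomere list held 5 of 40, Fhl2, Nebl and Cmya5 positive and Tnnt1 and Myom2 (-0.51) negative. The potassium channel list held 3 of 26, Kcnh2, Abcc9 (1.19) and Kcnv2 (0.80), all positive. Among the metabolic lists only Etfa (0.37) and Ldhb (0.31) were called, both with a smaller difference in favour of the ventricles in idKO mice. Tbx20, a T-box factor (-0.51), Irx4 (0.99) and Meis2 were the 3 called transcription factors of 37, and Fhl1 (-0.50), a LIM protein gene, was called on the intercalated disc and stress lists. Fgf13, Myom2, Kcnv2, Etfa, Tbx20 and Fhl1 were chosen after their values were seen. The genotype call was lost in 15 of 24 alternative fits for Cacna2d1, 14 for Irx4, 13 for Ldhb, 12 for Etfa and for Rgs2, 11 for Kcnv2 and for Pam and 10 for Gnao1, with the sign kept in each.

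The windows of 250 bases before the start were searched for the MEIS core TGACAG, on either strand, in the genes with a promoter entry. The motif was in 16.8% of 10394 tested genes, in 18.0% of 27025 genes of the whole table, in 18.0% of 835 genes called 2-fold or more higher in idKO atria and in 17.3% of 568 such genes in ventricles. It was in 19 of 62 matched genes more positive in idKO mice (30.6%) and in 5 of 15 more negative (33.3%). TATAAA was in 8.25% of tested genes, 10.3% of the atrial and 11.6% of the ventricular 2-fold genes, 21.0% of the more positive and 40.0% of the more negative genes. AGATAA was in 7.3% of tested genes and in 16.1% and 6.67% of the more positive and more negative genes. These are shares of short windows given as a description, without a test.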

How the data were processed

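Per the labels' protocols, RNA was DNase-treated, libraries were made with the NEBNext Ultra kit and sequenced as single reads. Reads were handled with cutadapt and RSEM 1.3.1 on GRCm38, per the submitters' processing notes. The scaling tool is not given in the sources used here, nor is any filter. The values deposited by the authors are a normalised signal: each equals a whole number of reads plus 0.5 over an effective library size, in counts-per-million (CPM). With that rule 100% of the values were whole within 0.01, so count tests could serve as alternatives. RSEM shares reads between near-identical genes.

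Genes reaching 1 CPM of the column sum in at least 4 of 8 libraries were tested with limma 3.58.1 in R 4.3.3 on log2(signal + 1), two-sided, with mouse as a block and a trended prior; p-values were adjusted by Benjamini-Hochberg. Controls were fitted alike, and the genotype difference on 16 libraries with mouse as a block (at least 4 of 16). The design planned for counts or normalised values, and the form for normalised values was used. The mouse numbers come from the sample titles. After each gene's group mean was subtracted on the log2 scale, each of 8 atria correlated best with its own mouse's ventricle (r 0.188 to 0.325). Replicates differed by more than sampling noise (mean chi-square per gene 8.08 to 16.8). The test was tested on simulated data first. For 206 identifiers the deposited table gave no name, and 202 of them took one from the GENCODE annotation.

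The members and the 44 lists were chosen with earlier results of these data known. Genes were named by rule: the targeted genes and Esr1, 14 markers, the 12 called genes highest in each chamber (no overlap, at least 20 CPM), up to 4 smallest p per list, up to 10 opposite calls and the 8 largest genotype differences per direction (at least 5 CPM), without predicted or clone names; some of them are not reported here. Alternatives were the pseudocount, filter, scaling, block, prior, weights, treat, edgeR 4.0.16, DESeq2 1.42.0, voom and each mouse left out (then 3 libraries for the filter).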

Additional observations from a re-analysis of the deposited data

Results flagged for a closer look

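The chamber difference differed between idKO and control mice (limma, adjusted p under 0.05, mouse as a block) for 42 genes named in the report, given here as the log2 chamber difference in idKO minus that in control mice. It was more positive for Meis2 1.33, Irx4 0.99, Cacna2d1 0.34, Abcc9 1.19, Corin 0.37, Ldhb 0.31, Efnb3 2.83, Cenpf 2.21, Ttll1 1.73, Gpr22 1.39, Fhl2 1.25, Abca12 1.36, Sms-ps 1.80, Gja1 1.12 and Ryr2 0.53. It was also more positive for Entpd5 0.90, Lifr 0.53, Emilin2 0.93, Mpped2 1.14, Nebl 0.52, Cmya5 0.45, Kcnh2 0.62, Kcnv2 0.80, Hcn4 1.19, Scn10a 1.15, Fgf13 0.63, Ctnna1 0.39, Etfa 0.37, Rgs2 0.59 and Ctgf 0.64. It was more negative for Esr1 -5.82, Nppa -2.39, Nppb -1.18, Gnao1 -0.62, Pam -0.51, Polr1e -0.85, Bin1 -0.96, Gcnt1 -0.86, Tnnt1 -0.75, Tbx20 -0.51, Myom2 -0.51 and Fhl1 -0.50.

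One library of 4 stood apart from the other 3 (by Dixon's 95% critical value) in 16 of 292 groups of named genes and library measures examined in idKO mice; chance flags about 1 group in 20. In idKO atria the isolated values were Acta1 96.4 in mouse 3 (others 1.75 to 11.8), Rgs6 67.1 in mouse 2 (others 73.4 to 73.9), Ucp1 58.6 in mouse 3 (others 26.4 to 28.0), Tnnt1 13.1 in mouse 4 (others 8.62 to 9.26), Hcn4 27.1 in mouse 4 (others 17.4 to 18.5) and Hspb6 202 in mouse 2 (others 276 to 289). In idKO ventricles the isolated values were Bmp10 1.93 in mouse 3 (others 0.278 to 0.381), Irx3 51.2 in mouse 3 (others 35.7 to 37.3), Bmp3 0.199 in mouse 4 (others 0.0379 to 0.0423), Idh2 2814 in mouse 3 (others 2497 to 2498), Gpihbp1 55.4 in mouse 3 (others 68.2 to 70.2), Cfd 0.804 in mouse 2 (others 0.492 to 0.517), Plin1 0.492 in mouse 3 (others 0.0423 to 0.119), Igkc 1.39 in mouse 4 (others 2.16 to 2.24) and Prph 0.804 in mouse 2 (others 0.266 to 0.341). For Bmp3 and Plin1 the lowest of these ventricular values are the added 0.5 read alone, so both isolated values rest on few reads. The ventricle of mouse 2 had the fewest reads among the idKO ventricles, 16.2 M (mega).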

How the results depend on the processing

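Counts of idKO chamber calls without a fold threshold stayed within 1.5 times of the values reported under every alternative except rescaling, but atrial calls outnumbered ventricular ones with edgeR (4097 and 3848), limma voom (4168 and 3919) and no filter (4166 and 4124). With CPM of the column sum the calls were 9089 higher in atria and 1605 higher in ventricles in idKO mice (2119 and 268 at 2-fold) and 9775 and 1474 in control mice (2581 and 265), with 8495 and 1296 called in both and 48 genes more positive in idKO mice. Without mitochondrially encoded genes in the sum they were 6651 and 2453 in idKO (415 ventricular at 2-fold), 7281 and 2458 in control mice (434), with 5954 and 2061 in both. On that scaling by column sum Bin1 became 0.37 and Fhl1 0.072 in idKO mice. The 2-fold counts moved with a pseudocount of 5 (571 and 470 in idKO, 619 atrial in control mice), with a mean of at least 5 CPM (690 and 735 atrial) and with treat, which tests against 2-fold (598 and 345 in idKO, 683 and 446 in control mice). Without the block for mouse, the pairing, the genotype difference was called for 40 and 4 genes, all 44 of them among the 102, and opposite calls fell to 7. Without the trended prior it was called for 12 and 1, with 10 opposite calls; DESeq2 gave 38 more negative and 10 opposite calls, and no filter gave 13 more negative. Leaving out 1 mouse gave 54 to 85 more positive, 15 to 37 more negative and 12 to 20 opposite calls (15 more negative without control mouse 3, control mouse 4 or idKO mouse 2, 37 without idKO mouse 4, and 12 opposite without control mouse 4). Over the named genes, 2800 of the alternative values for idKO mice kept their status, called with the same sign or not called. A call was lost in 42, from 11 genes, and gained in 12, from 5 genes. The sign was reversed, with a call in either fit, in 2 values from 2 genes. For the genotype difference 825 values kept their call and 182, from 32 genes, lost it. The cause of these changes was not tested. Depth limits genes near 1 CPM, such as Irx4 in atria.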

Other observations

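Chaperone genes, which fold and protect proteins, were mostly higher in idKO ventricles: 17 of 23 tested genes were called higher there and 2 higher in atria, with a median of -0.47 (0.013 with column-sum scaling). Hspb6, a small heat shock protein of muscle, measured 278, 202, 289 and 276 in idKO atria and 1059, 973, 1139 and 992 in idKO ventricles. Of 19 genes of myocardial stress, 13 were called higher in ventricles and 4 higher in atria, which became 8 and 6 with column-sum scaling. On that list, Xirp2, an actin-binding protein of the intercalated disc, measured 304, 288, 278 and 331 in atria and 860.1, 1019, 959.8 and 927 in ventricles, and Rcan1, an inhibitor of calcineurin, 41.8, 45.6, 52.2 and 51.7 and 87.3, 75.5, 95.1 and 90.1.

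Of 18 circadian clock genes, 7 were called higher in idKO atria and 2 higher in ventricles, with a median of 0.13. Of 30 interferon response genes, 8 were called for the atria and 6 for the ventricles (median 0.043); over all tested genes the shares were 28.1% and 29.4%, and the atrial share of the interferon list lies near the first. Of 21 cell cycle genes, 5 were called higher in idKO atria, 3 higher in ventricles and 13 were not called. With column-sum scaling the atrial and ventricular counts were 15 and 1 for clock genes. They were 17 and 3 for interferon response genes and 14 and 1 for cell cycle genes. Mcm3, a subunit of the replication helicase, measured 11.7, 8.44, 7.56 and 7.69 in atria and 5.12, 5.21, 5.19 and 5.13 in ventricles. None of these 5 lists had a member called different between the genotypes other than Cenpf on the cell cycle list and Nppa, Nppb and Fhl1 on the stress list.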
